A study of Arabidopsis thaliana with 4 samples.

Results

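In 2-week-old *Arabidopsis* shoots, 88 H3K4me3 anchors carried many tags but took part in few chromatin loops. An anchor is a merged H3K4me3 ChIP-seq peak, and its tags are the ChIA-PET reads that fell into it, so the tag count measures how much H3K4me3 chromatin was captured there. The anchors were chosen from the Col-0 loop list as those with at least 2000 tags and at most 2 loops. They made up 88 of 15391 anchors of that list and 2.08% (1.69 to 2.56%) of the 4230 anchors with at least 2000 tags. The median tag-rich anchor with 3 or more loops had 7 loops in Col-0. Both Col-0 measures set the choice, so they are given as a description only.

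The series compared H3K4me3 ChIA-PET in shoots of *myc2* seedlings and of wild-type Col-0 seedlings, both 2 weeks old, with 2 samples per genotype that the authors combined into 1 loop list each. The allele of the *myc2* mutant is not given in the sources used here, and shoots hold many cell types, so less mark in each cell cannot be told apart from fewer cells carrying it. Since each genotype has 1 list, its spread between samples is not known, and no p-value was computed. All intervals below are 95% intervals that cover counting error only. The *myc2* list held 32312 loops with 297390 paired-end tags (PETs) and the Col-0 list 36723 loops with 745505 PETs. Loops started at 5 PETs in *myc2* and at 10 PETs in Col-0. The median tag ratio, *myc2* over Col-0, was 0.775 over the 14742 anchors in both lists. The anchor inside MYC2, which AT1G32630 overlaps on the other strand, held 1423 tags in *myc2* and 3562 tags in Col-0. The next anchor, which reaches only the 3′ end of MYC2, held 1731 tags in *myc2* and 2479 tags in Col-0. The 5 leaf marker genes all had an anchor, with 2041 to 7438 tags in *myc2* and 2466 to 9142 tags in Col-0, whereas 1 of 5 root hair markers had one, with 724 tags in *myc2* and 924 tags in Col-0.

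H3K4me3 marks nucleosomes at the start of transcribed genes, and in plants its breadth and height go along with active transcription. ChIA-PET joins DNA ends that are close together in crosslinked, H3K4me3-bearing chromatin, and each junction is read as a PET. In the compact Arabidopsis genome most loops of this kind join promoters of nearby genes. MYC2 is a basic helix-loop-helix transcription factor of jasmonate signalling that binds the G-box, CACGTG.

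The upstream sequences of 6 genes of these anchors are shown, because the anchors were followed by gene and the genes differed in what happened to their loops. AOS and LOX2 make jasmonate, FC1 and AT5G57710 lay under the anchors with most tags, CRK40 lay farthest from any other anchor, its own anchor being in the gene body, and HAT22 had no loop in *myc2*. Each runs 5′ to 3′ on the gene's strand over the 250 bases before the annotated start, taken from RefSeq TAIR10.1, with the G-box, the related CACATG or its reverse complement, and TATAAA or its reverse complement in capitals, where neighbouring TATAAA matches can overlap.
AOS, chr5:17099596-17099845, minus strand: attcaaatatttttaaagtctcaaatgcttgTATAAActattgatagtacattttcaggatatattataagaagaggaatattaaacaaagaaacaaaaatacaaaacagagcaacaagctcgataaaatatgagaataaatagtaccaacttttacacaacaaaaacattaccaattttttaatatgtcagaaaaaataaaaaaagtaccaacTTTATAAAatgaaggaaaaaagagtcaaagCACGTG
LOX2, chr3:16524995-16525244, plus strand: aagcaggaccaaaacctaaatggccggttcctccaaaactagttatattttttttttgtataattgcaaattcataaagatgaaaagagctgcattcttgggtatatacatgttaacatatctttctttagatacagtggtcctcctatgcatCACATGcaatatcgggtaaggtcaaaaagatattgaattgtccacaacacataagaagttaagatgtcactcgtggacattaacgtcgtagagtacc
FC1, chr5:9096201-9096450, plus strand: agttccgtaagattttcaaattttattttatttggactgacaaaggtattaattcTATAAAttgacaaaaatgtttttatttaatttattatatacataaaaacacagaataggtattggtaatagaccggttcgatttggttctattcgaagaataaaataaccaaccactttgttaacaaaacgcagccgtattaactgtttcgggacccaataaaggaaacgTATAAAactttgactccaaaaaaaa
AT5G57710, chr5:23384005-23384254, plus strand: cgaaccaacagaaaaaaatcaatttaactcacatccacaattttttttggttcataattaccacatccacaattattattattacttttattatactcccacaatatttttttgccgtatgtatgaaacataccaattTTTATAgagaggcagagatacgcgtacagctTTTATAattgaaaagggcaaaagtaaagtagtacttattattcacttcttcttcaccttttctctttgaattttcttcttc
CRK40, chr4:2288366-2288615, plus strand: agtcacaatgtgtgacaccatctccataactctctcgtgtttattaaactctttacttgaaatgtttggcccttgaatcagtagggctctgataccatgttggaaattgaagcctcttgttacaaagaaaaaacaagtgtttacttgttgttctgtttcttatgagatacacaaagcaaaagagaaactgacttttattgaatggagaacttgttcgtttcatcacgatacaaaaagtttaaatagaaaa
HAT22, chr4:17767792-17768041, plus strand: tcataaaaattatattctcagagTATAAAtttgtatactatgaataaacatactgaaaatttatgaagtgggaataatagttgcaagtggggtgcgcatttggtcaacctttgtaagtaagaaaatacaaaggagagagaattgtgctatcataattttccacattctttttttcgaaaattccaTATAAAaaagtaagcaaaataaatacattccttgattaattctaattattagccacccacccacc

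The AOS sequence ended in a G-box, directly before the annotated start, and the LOX2 sequence held the related CACATG. The other 4 sequences held neither. Of the 83 anchors with an assigned gene, 5 (6.02%, 2.60 to 13.3%) had a G-box in these 250 bases, against 1780 of 27444 protein-coding genes (6.49%). They were AOS, AT3G62260, AT3G17250, CYP707A1 and COL4. The CACATG form was found before 11 genes (13.3%, 7.56 to 22.2%), against 11.1% of all protein-coding genes. TATAAA, on either strand, was found 3 times before AOS, 2 times each before FC1, AT5G57710 and HAT22, and not before LOX2 or CRK40. It was found before 38 of the 83 genes (45.8%, 35.5 to 56.45%), against 47.3% of all. The promoter sequences thus held these letters at about the frequency of all promoters.

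The tags of the 88 anchors lay close above the minimum. In Col-0 they ranged between 2006 and 4159 with a median of 2239, and 70 of the 88 had under 2500. The 3 nearest inside the minimum were GSH1 with 2006 tags, AT5G46910 with 2013 and AT1G67280 with 2016, and the 3 nearest outside were VLN4 with 1997, emb1220 with 1993 and FRS3 with 1980. Of the 88, 65 had 2 loops and 23 had 1 loop, and 174 further tag-rich anchors had 3 loops. In the plot of tags against loops they form the lower edge of the cloud of tag-rich anchors.

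**Figure D1:**
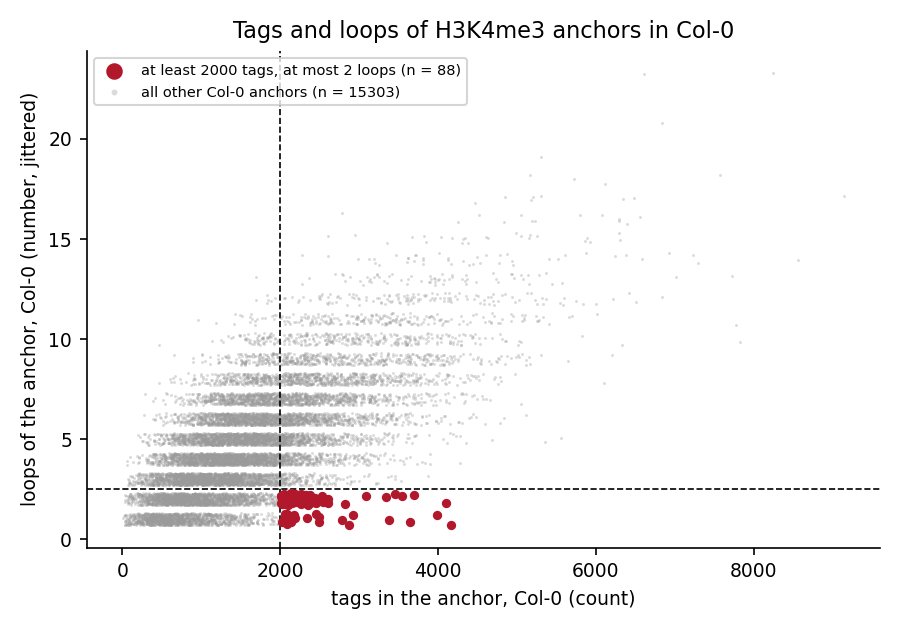
Tags in the anchor (x axis, count) against loops of the anchor (y axis, number, jittered) in Col-0, with the 88 tag-rich anchors of at most 2 loops in red and all other anchors in grey. Dashed lines mark 2000 tags and the limit of 2 loops, and most red points lie below 2500 tags.

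The 10 anchors above 3000 tags were the clearest cases of many tags with little looping. Per kb their tags were not high, with a median of 1473, against 1990 for other tag-rich anchors and 1610 for all Col-0 anchors. AT5G57710, for which RefSeq gives the synonym SMAX1, a repressor of karrikin responses, held 3401 tags in *myc2* and 4159 tags in Col-0 over 2971 bp. Its loops numbered 3 in *myc2* and 1 in Col-0, and the loop to DGK4 over 10.7 kb had 17 PETs in *myc2* and 33 PETs in Col-0. FC1, a ferrochelatase that inserts iron into protoporphyrin to make heme, held 3666 tags in *myc2* and 4099 tags in Col-0. Its loops numbered 5 in *myc2* and 2 in Col-0. AT1G61890, a MATE efflux carrier, held 3075 tags in *myc2* and 3992 tags in Col-0, with 2 loops in *myc2* and 1 loop in Col-0. The receptor-like kinase AT4G08850 held 3041 tags in *myc2* and 3702 tags in Col-0. It had the strongest single loop of all 88 anchors, to the arginase gene ARGAH2 over 8.89 kb, with 43 PETs in *myc2* and 70 PETs in Col-0. LRX3, a leucine-rich repeat extensin of the cell wall, held 3010 tags in *myc2* and 3648 tags in Col-0, with 3 loops in *myc2* and 1 loop in Col-0. HB34, a zinc-finger homeodomain factor, held 2587 tags in *myc2* and 3453 tags in Col-0, with 5 loops in *myc2* and 2 loops in Col-0. HEMA1, the glutamyl-tRNA reductase at the first committed step of chlorophyll and heme synthesis, held 2854 tags in *myc2* and 3380 tags in Col-0. It had 3 loops in *myc2* and 1 loop in Col-0. The UDP-glycosyltransferase AT4G15260, whose anchor overlaps 4 snoRNA genes, held 2822 tags in *myc2* and 3343 tags in Col-0 and had 2 loops in each. AT2G17020, an F-box protein gene, held 2313 tags in *myc2* and 3090 tags in Col-0, with 3 loops in *myc2* and 2 loops in Col-0. The last of the 10 was AOS, given with LOX2 below. In 8 of these 10 anchors (80.0%, 49.0 to 94.3%) *myc2* listed 3 or more loops. The backgrounds were 70.9% of all Col-0 anchors and 96.9% of all anchors with at least 2000 tags.

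The anchors with few loops had few other anchors around them. Within a gap of 20 kb they had a median of 3 other anchors (quartiles 2 and 4), against 7 (quartiles 5 and 8) for tag-rich anchors with 3 or more loops and 5 for anchors under 2000 tags with at most 2 loops. At most 2 other anchors lay within 20 kb of 40 of the 88 (45.5%, 35.5 to 55.8%), against 69 of 4142 other tag-rich anchors (1.67%, 1.32 to 2.10%). The share was 14.9% for anchors under 2000 tags with at most 2 loops and 4.65% for all Col-0 anchors. The nearest anchor was a median of 4.04 kb away, against 2.20 kb for other tag-rich anchors. The number of neighbours and the number of loops are not independent, since a loop needs a second anchor. Peaks without a listed loop are in neither list, so these counts cover looped peaks and not all H3K4me3 nearby. Read the other way, at most 2 loops were found in 4 of 5 tag-rich anchors with no neighbour within 20 kb, in 9 of 26 with 1 neighbour, in 27 of 78 with 2 and in 13 of 175 with 3. With 7 neighbours it was 3 of 765, and with 9 or more it was 0 of 1005.

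**Figure D2:**
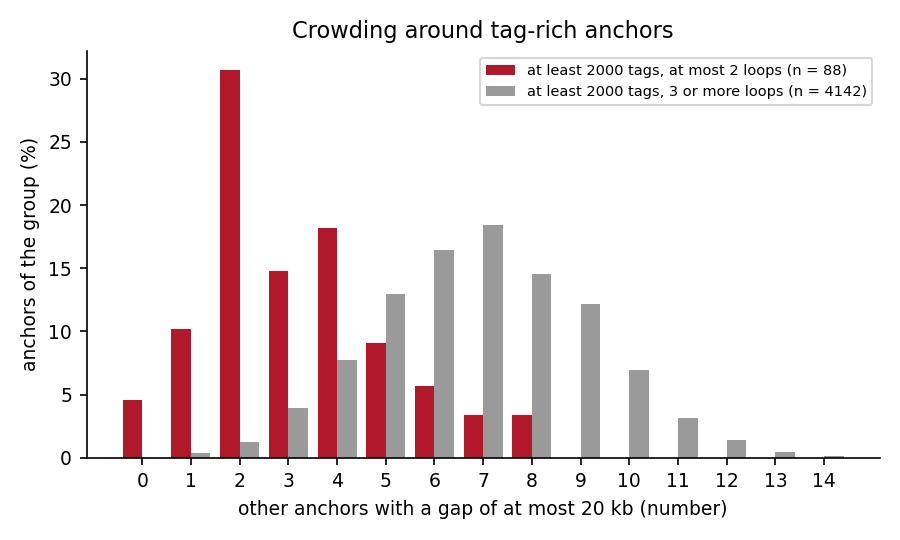
Share of anchors (y axis, percent of the group) by the number of other anchors within a gap of 20 kb (x axis), for the 88 tag-rich anchors with at most 2 loops (red, left bars) and 4142 tag-rich anchors with 3 or more loops (grey, right bars). The red bars peak at 2 neighbours and the grey bars centre on 7.

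The gene landscape differed in the same direction. Within 20 kb of the anchor centre lay a median of 8 protein-coding genes, against 12 for other tag-rich anchors. At most 5 genes were found around 14 of the 88 (15.9%, 9.72 to 24.95%), against 44 of 4142 (1.06%, 0.792 to 1.42%). At least 3 pseudogenes lay around 17 of the 88 (19.3%, 12.4 to 28.8%), against 122 of 4142 (2.95%, 2.47 to 3.51%). Anchors under 2000 tags with at most 2 loops lay in between, with 6.07% for few genes and 11.2% for pseudogenes. Over all Col-0 anchors the shares were 2.22% for few genes and 5.23% for pseudogenes. Anchor width was similar, with a median of 1350 bp against 1401 bp, so the tags were spread at a median of 1741 per kb, against 1990 per kb for other tag-rich anchors. The GC content was 39.7% against 40.4% (medians). The anchors lay on all 5 chromosomes, with 20, 15, 13, 15 and 25 on chromosomes 1 to 5.

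The most isolated anchors show what this looks like. CRK40, a cysteine-rich receptor-like kinase gene on chromosome 4, lay 33.2 kb from the nearest anchor and had 2868 tags in *myc2* and 2928 tags in Col-0. Its Col-0 loop ran 37.3 kb to AT4G04614, with 7 PETs in *myc2* and 11 PETs in Col-0, and *myc2* listed a further loop of 7 PETs over 85.3 kb to AT4G04690. AGT, a photorespiratory aminotransferase gene on chromosome 2, lay 26.5 kb from the nearest anchor. It held 1624 tags in *myc2* and 2089 tags in Col-0, and its loop over 28.2 kb to AT2G13290 had 11 PETs in *myc2* and 15 PETs in Col-0. AT3G44800, a MATH-domain gene, lay 20.4 kb from the nearest anchor and had 2174 tags in *myc2* and 2786 tags in Col-0. Its loop over 21.4 kb to AT3G44820 had 9 PETs in *myc2* and 10 PETs in Col-0. With no other anchor within 20 kb, the Col-0 loops of these 3 anchors had to be longer than that, and they carried at most 15 PETs. Joined pairs of other tag-rich anchors 20 to 30 kb apart had a median of 13 PETs in Col-0.

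For 5 of the 88 anchors no protein-coding gene, with 1 kb upstream of its start, covered 50% of the anchor, and 4 of the 5 overlapped a pseudogene. Pseudogenes overlapped 5 of the 88 anchors (5.68%, 2.45 to 12.6%), against 16 of 4142 other tag-rich anchors (0.386%, 0.238 to 0.627%). Pseudogenes annotated as transcribed overlapped 0 of the 88, which allows a share of up to 4.18%, and 28 of the others (0.676%). The anchor overlapping pseudogene AT5G33382 on chromosome 5 (12618401 to 12619903) held 1784 tags in *myc2* and 2138 tags in Col-0 and lay 28.7 kb from the nearest anchor. Its only Col-0 loop, 10 PETs to CUE1 over 29.9 kb, was not listed in *myc2*, where 5 PETs joined it to XGD1 over 60.1 kb. The central 300 bases of this anchor, shown because no gene name describes it, held neither the G-box nor the other letters searched above.
Anchor at AT5G33382, chr5:12619003-12619302, plus strand: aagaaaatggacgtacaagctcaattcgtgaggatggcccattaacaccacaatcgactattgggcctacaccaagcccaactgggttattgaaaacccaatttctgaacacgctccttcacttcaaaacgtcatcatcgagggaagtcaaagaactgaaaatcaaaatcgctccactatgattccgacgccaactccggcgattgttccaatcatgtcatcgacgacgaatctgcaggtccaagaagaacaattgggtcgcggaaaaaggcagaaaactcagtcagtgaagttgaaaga

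The anchor at pseudogene AT3G29776 on chromosome 3 (11654843 to 11656483) held 2023 tags in *myc2* and 2871 tags in Col-0 and looped to MES11 in both lists, with 8 PETs in *myc2* and 17 PETs in Col-0. The anchor over AT1G35110 and AT1G35112 on chromosome 1 (12840169 to 12841712) held 1408 tags in *myc2* and 2084 tags in Col-0. Its single loop, to PHI-1, was strong, with 22 PETs in *myc2* and 53 PETs in Col-0. The anchor at AT2G05290 on chromosome 2 (1925554 to 1926721) held 1749 tags in *myc2* and 2079 tags in Col-0 and had 2 loops in each list. The Col-0 tags of these 4 anchors, 2079 to 2871, lay within the range of the anchors at protein-coding genes. The other anchor without such a gene (chromosome 2, 2586964 to 2588486) was shared by RPA1A, with 47.4% of it, and PSBX, with 49.7%.

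Most of the 88 touched a promoter, but fewer were covered by one. A protein-coding promoter, taken as the 1 kb before a start and the 0.5 kb after it, overlapped 83 of 88 by at least 1 bp (94.3%, 87.4 to 97.5%), against 98.1% of other tag-rich anchors. Promoters covered at least 50% of the anchor in 31 of 88 (35.2%, 26.1 to 45.6%), against 48.8% of other tag-rich anchors and 62.4% of all Col-0 anchors. No annotated start lay inside 35 of the 88 (39.8%, 30.2 to 50.2%), against 35.5% of other tag-rich anchors and 52.2% of all Col-0 anchors. Exactly 1 annotated start lay inside 49 of the 88 anchors, and 2 or more starts lay in 4 of the 88 (4.55%, 1.78 to 11.1%), against 923 of 4142 other tag-rich anchors (22.3%, 21.04 to 23.6%). Over all Col-0 anchors the share with 2 or more starts was 7.06%, within the interval of the 88. For anchors under 2000 tags with at most 2 loops it was 0.955%. By product words, the gene classes of the 88 were close to those of other tag-rich anchors. Transcription factors made up 7 (7.95%, 3.91 to 15.5%) against 6.23%, namely HB34, AT5G28300, SPL14, HAT22, COL4, AtHB23 and the jumonji factor AT5G46910. Protein kinases made up 6 (6.82%, 3.16 to 14.1%) against 7.12%, transporters 3 against 2.80%, and genes whose product line says uncharacterized, hypothetical, unknown function or DUF 8 (9.09%, 4.68 to 16.9%) against 8.23%. The product lines of XBAT31 and RUS6 put them among these 8. Ubiquitin-system genes numbered 2 by the same words, RNA-binding genes 2, and ribosomal proteins, chaperones and histone or chromatin genes 1 each. Genes whose product line lacks the words are missed, such as GFA2, a DnaJ protein not counted among the chaperones. None of the 88 had a photosynthesis gene by this rule, which allows a share of up to 4.18%, against 1.06% of other tag-rich anchors. The photosystem gene PSBX was not counted, since it covered 49.7% of its anchor and an assigned gene had to cover 50%.

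The loops that the 88 anchors had in Col-0 led mostly to the next anchor. They numbered 152, with a median of 20 PETs (10 to 70) and a median span of 10.0 kb (2.44 to 47.1 kb), against 18 PETs and 12.8 kb for loops of other tag-rich anchors. Loops of anchors under 2000 tags with at most 2 loops were shorter still, with medians of 14 PETs and 8.41 kb. The limit on Col-0 loops set the choice, so these values are a description only. No anchor lay between the ends of 96 of the 152 (63.2%, 55.3 to 70.4%), against 23.1% of the loops of other tag-rich anchors, and 1 anchor lay between the ends of 41. An anchor has at most 1 next anchor on each side, so this share must fall as loops per anchor rise. The choice of anchors with at most 2 loops thus favours a high share, and this contrast is a description only as well. Of the 65 anchors with 2 loops, 40 had 1 loop on each side and 25 had both on the same side. Their partners had a median of 1498 tags and 3 loops in Col-0, and 37 of the 152 partners were tag-rich. The strongest loops after that of AT4G08850 joined RUS6 to AT5G49840 (37 PETs in *myc2* and 63 PETs in Col-0), AT5G60050 to AT5G60030 (21 PETs in *myc2* and 59 PETs in Col-0) and AT3G30390, an amino acid transporter gene, to AT3G30380 (24 PETs in *myc2* and 53 PETs in Col-0). The longest joined AT1G35350 to AT1G35430 over 47.1 kb (7 PETs in *myc2* and 11 PETs in Col-0), AT2G17020 to TRN1 over 44.8 kb (not listed in *myc2*, 11 PETs in Col-0) and AT2G03140 to EMB93 over 41.3 kb (8 PETs in *myc2* and 12 PETs in Col-0). The strong loops were short and the long loops weak. Only PyrD and AT4G20980, neighbours on chromosome 4, were joined to each other in Col-0, over 5.45 kb with 11 PETs in *myc2* and 36 PETs in Col-0. In *myc2* 4 loops joined members to each other, among them TOE2 to AT5G60170, PP2-A11 to RBL2 and NYC1 to LRX3.

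Not every neighbour within reach was joined. No pair of anchors with centres under 2 kb apart was joined around the 88, and in the whole of Col-0 the shortest loop between 2 anchors spanned 1.83 kb. At 3 to 5 kb the 88 anchors were joined to 23 of 26 neighbours in *myc2* (88.5%, 71.0 to 96.0%) and to 24 of 26 in Col-0 (92.3%, 75.9 to 97.9%). Other tag-rich anchors were joined to 90.5% in *myc2* and 95.9% in Col-0. At 10 to 20 kb the shares for the 88 were 49.3% (41.1 to 57.5%) of 138 pairs in *myc2* and 37.7% (30.0 to 46.0%) in Col-0, against 64.3% in *myc2* and 75.4% in Col-0 for other tag-rich anchors. At 30 to 50 kb they were 9.58% (7.14 to 12.7%) of 428 pairs in *myc2* and 2.34% (1.27 to 4.25%) in Col-0, against 9.60% in *myc2* and 10.4% in Col-0. In Col-0 the lower shares follow from the choice of anchors. In *myc2*, which the choice did not use, the 88 lay near other tag-rich anchors at 3 to 10 kb and at 30 to 50 kb, and below them at 2 to 3 kb and 10 to 30 kb. At 2 to 3 kb the *myc2* list joined 0 of 19 pairs, which allows a share of up to 16.8%, against 33.9% (31.4 to 36.6%) for other tag-rich anchors.

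**Figure D3:**
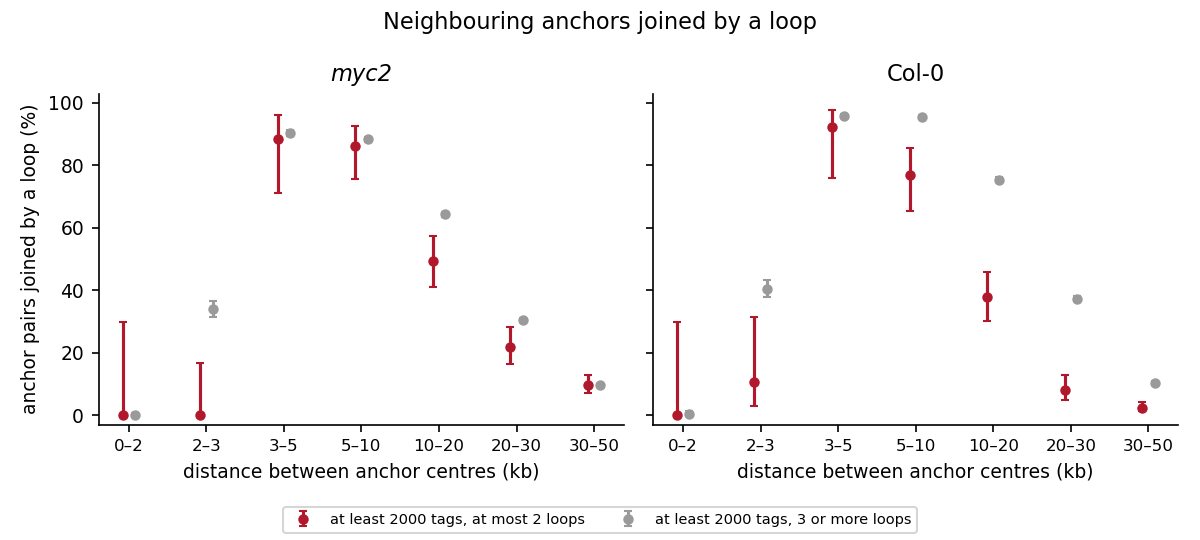
Share of neighbouring anchor pairs joined by a loop (y axis, percent, 95% Wilson intervals) by the distance between anchor centres (x axis, kb) in *myc2* (left) and Col-0 (right). Red points are pairs of the 88 tag-rich anchors with at most 2 loops and grey points those of tag-rich anchors with 3 or more loops, and the gap at 30 to 50 kb is seen only in Col-0.

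The neighbours themselves held fewer tags. Other anchors within 20 kb of the 88 had a median of 1222 tags, against 1525 around other tag-rich anchors. Neighbours that were joined in Col-0 had a median of 1476 tags and those that were not had 999, and around other tag-rich anchors the medians were 1665 and 1025. At 3 to 20 kb, neighbours with at least 2000 tags were joined to the 88 in 36 of 38 pairs in *myc2* (94.7%, 82.7 to 98.5%) and in 32 of 38 pairs in Col-0 (84.2%, 69.6 to 92.6%). Neighbours under 500 tags were joined in 9 of 25 pairs in *myc2* (36.0%, 20.2 to 55.5%) and in 6 of 25 pairs in Col-0 (24.0%, 11.5 to 43.4%). The joined share thus went up with the tags of the neighbour in both genotypes.

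Followed in *myc2*, 87 of the 88 anchors still had a loop. The exception was HAT22, a homeodomain-leucine zipper gene with 2082 tags in Col-0, whose only loop, to XTH7 with 12 PETs, was not listed in *myc2*. No loop in *myc2* was found for 1.14% (0.201 to 6.16%) of the 88, against a background of 4.22% of all Col-0 anchors and 0 of 4142 other tag-rich anchors (up to 0.0927%). The tags of HAT22 in *myc2* are not known, since the list gives tags only for anchors in a loop. Of the 152 Col-0 loops, 121 were present in *myc2* (79.6%, 72.5 to 85.2%), against a background of 67.8% of all Col-0 loops and 72.0% of those of other tag-rich anchors. The 31 loops not present had a median of 12 PETs (10 to 23) in Col-0, and those present 23. Within loops of 10 to 14 PETs, 18 of 43 (41.9%, 28.4 to 56.7%) were present, against 43.0% of all Col-0 loops of that strength. At 15 to 19 PETs 26 of 31 (83.9%, 67.4 to 92.9%) were present, against 70.5%, and at 20 to 29 PETs 42 of 43 (97.7%, 87.9 to 99.6%), against 89.5%. Of loops with at least 30 PETs all 35 were present, against 99.1%. All Col-0 loops were present for 57 anchors and none for 5. Loops in both lists held 1344 PETs in *myc2* and 3100 PETs in Col-0, a ratio of 0.434 (0.407 to 0.462), against 0.427 for other tag-rich anchors.

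The number of listed loops was higher in *myc2* for most of the 88, although the list as a whole held fewer. Their distinct loops numbered 254 in *myc2* and 152 in Col-0. More loops in *myc2* than in Col-0 were listed for 58 (65.9%, 55.5 to 74.96%), against a background of 22.8% of all Col-0 anchors and 29.5% (27.9 to 31.1%) of the 3245 anchors under 2000 tags that also had at most 2 loops in Col-0. Fewer were listed for 5 (5.68%), against a background of 52.0% and 33.9% of those 3245 anchors. At least 3 loops in *myc2* were listed for 49 (55.7%, 45.3 to 65.6%), against backgrounds of 70.9% of all Col-0 anchors and 96.9% of all anchors with at least 2000 tags. At least 5 were listed for 13, against 39.9% of all Col-0 anchors. The median anchor had 3 loops in *myc2* and 2 loops in Col-0, and other tag-rich anchors had 6 loops in *myc2* and 7 loops in Col-0. The 88 were chosen for few loops in Col-0, which leaves little room for fewer loops in *myc2* and favours more. The 3245 anchors share this limit, but all Col-0 anchors do not, so the contrasts with all Col-0 anchors are a description only. The lists also start at different strengths, 5 PETs in *myc2* and 10 PETs in Col-0. With *myc2* loops of at least 10 PETs, 0 of the 88 had 3 or more loops. When the rule was turned round, 126 anchors with few loops in *myc2* and tags at the same rank were found, of which 30 were among the 88, and 68.3% (59.7 to 75.7%) of them had 3 or more loops in Col-0.

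**Figure D4:**
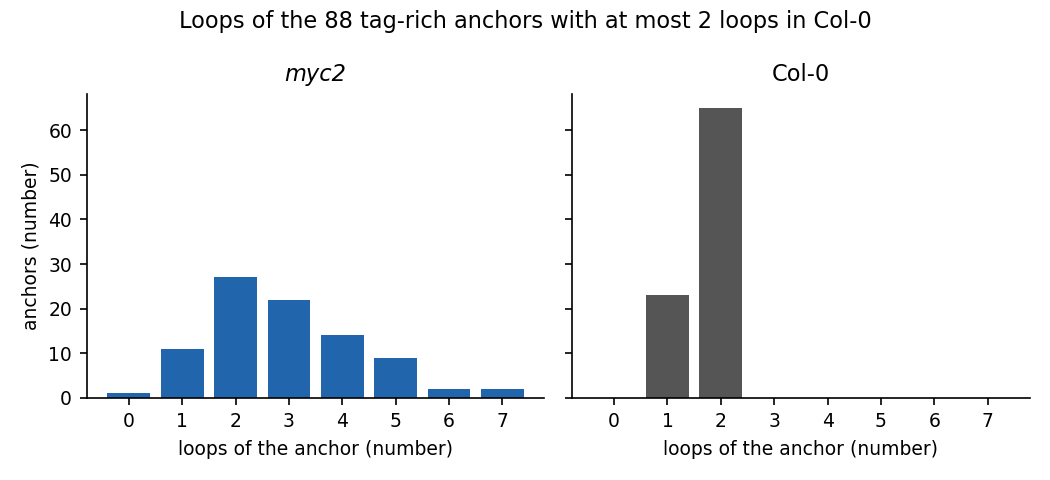
Number of the 88 anchors (y axis) by their loops (x axis) in *myc2* (left) and Col-0 (right). In *myc2* the anchors spread between 0 and 7 loops, in Col-0 all have 1 or 2 by choice.

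The loops listed only in *myc2* were weak and long. They numbered 133 over 70 anchors, with a median of 6 PETs (5 to 12), and 9 of them reached the 10 PETs at which the Col-0 list starts. All 7416 loops listed only in *myc2* had a median of 5 PETs, so low PETs were not particular to the 88. The median span of the 133 within a chromosome was 28.7 kb, against 8.89 kb for loops of the 88 present in both lists. For all loops listed only in *myc2* it was 22.6 kb. A span of at least 20 kb was found for 93 of 133 (69.9%, 61.7 to 77.1%), against 57.7% of all loops listed only in *myc2*, and 4 more of the 133 ran between chromosomes. With *myc2* loops of at least 10 PETs, the share of the 88 with 3 or more loops was 0 (up to 4.18%), while it was 48.0% for other tag-rich anchors. The share of Col-0 loops present was then 37.5%, and 39.8% of the 88 had no loop. Since shared loops held 0.434 of their Col-0 PETs in *myc2*, 10 PETs is a stricter minimum in *myc2* than in Col-0.

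AT2G30230, a lumazine synthase-like gene on chromosome 2, had 7 loops in *myc2* and 2 loops in Col-0, with 1838 tags in *myc2* and 2017 tags in Col-0. Its loops in *myc2* reached EMB3147 and AT2G30150 with 10 PETs each, and EMB3147 was joined with 12 PETs in Col-0. AT5G60170, an RNA-binding protein gene on chromosome 5, also had 7 loops in *myc2* and 2 loops in Col-0, with 1845 tags in *myc2* and 2155 tags in Col-0. Its loop to PUM19, with 19 PETs in Col-0, was not listed in *myc2*, where RIP5 was joined with 11 PETs. XBAT31, of a family of ankyrin-repeat RING ubiquitin ligases, had 6 loops in *myc2* and 2 loops in Col-0, and 3 of the 6 ran to other chromosomes with 5 or 6 PETs. LCBK1, a kinase of sphingoid long-chain bases, had 6 loops in *myc2* and 2 loops in Col-0. Its Col-0 loops, to AT5G23460 and FTRA1, were kept with 22 and 14 PETs in *myc2*, against 46 and 36 PETs in Col-0, and the 4 further loops had 5 or 6 PETs. Apart from XBAT31, each of these anchors had 5 to 8 other anchors within 20 kb.

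Crowding split the 88 anchors in how many loops *myc2* listed. Of the 19 with 5 or more other anchors within 20 kb, 15 had 3 or more loops in *myc2*, with a median of 4. Of the 13 with at most 1 other anchor, 3 did, with a median of 2. The crowded anchors were joined within 20 kb to 57 of 115 neighbours in *myc2* and to 36 of 115 in Col-0, and the sparse ones to 7 of 9 in *myc2* and to all 9 in Col-0. The choice allowed at most 2 Col-0 loops per anchor, so the Col-0 count of the crowded anchors could hardly be higher. Neighbours include anchors listed only in *myc2*, so crowding and the number of *myc2* loops are not independent. Among the crowded, AT5G15200, a ribosomal protein S4 gene, and HAI1, a protein phosphatase of abscisic acid signalling, both had 8 other anchors within 20 kb. AT5G15200 had 4 loops in *myc2* and 2 loops in Col-0, and HAI1 had 3 loops in *myc2* and 2 loops in Col-0. Few loops in Col-0 were thus also found among many neighbours.

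The tags of the 88 anchors stood in about the same ratio between the lists as those of other tag-rich anchors. The median tag ratio, *myc2* over Col-0, was 0.799 (quartiles 0.752 and 0.855), against 0.794 for other tag-rich anchors and 0.744 for anchors under 2000 tags with few loops. Summed over the 87 anchors in both lists, the tags were 169111 in *myc2* and 209460 in Col-0. A ratio under 0.7 was found for 4 of 87 (4.60%, 1.80 to 11.2%), against a background of 18.1% of all anchors in both lists, and a ratio over 0.9 for 7 of 87 (8.05%, 3.95 to 15.7%), against a background of 5.28%. Among other tag-rich anchors the shares were 6.76% under 0.7 and 5.67% over 0.9. The interval of the ratio lay above the median of other tag-rich anchors for 29 of 87 (33.3%) and below it for 17 (19.5%). Among the other tag-rich anchors themselves these shares were 24.6% above and 24.6% below.

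**Figure D5:**
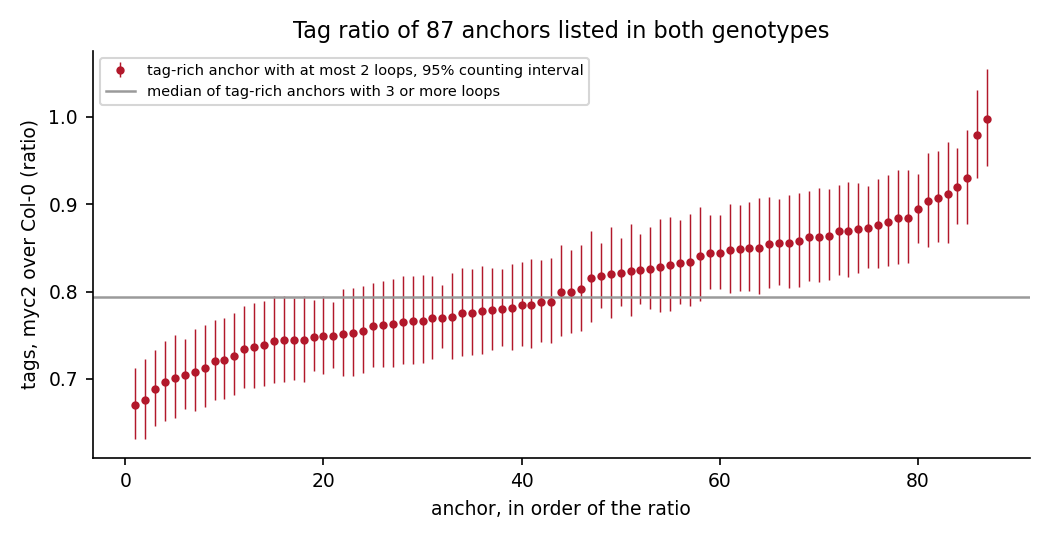
Tag ratio, *myc2* over Col-0 (y axis), of the 87 anchors in both lists, in order of the ratio (x axis), with 95% counting intervals. The grey line is the median of tag-rich anchors with 3 or more loops, 0.794, and the points run between 0.670 and 0.998.

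The highest ratio was 0.998 (0.944 to 1.05), at the anchor between RPA1A, a replication protein, and PSBX, a photosystem II subunit, with 2489 tags in *myc2* and 2495 tags in Col-0. CRK40 followed with 0.980 (0.930 to 1.03), AT4G20980, a translation initiation factor subunit, with 0.930, AOS with 0.920 (0.877 to 0.965) and AT2G30230 with 0.911. The lowest was 0.670 (0.631 to 0.712) at GFA2, a mitochondrial DnaJ protein, with 1748 tags in *myc2* and 2608 tags in Col-0. The anchor over AT1G35110 had 0.676, the uncharacterized gene AT3G50340 0.688, the methyltransferase gene AT5G01710 0.696 and HAI1 0.701. GFA2 had 3 loops in *myc2* and 2 loops in Col-0, and the RPA1A and PSBX anchor had 1 loop in each. That anchor was joined to the next RPA1A anchor with 11 PETs in Col-0, and in *myc2* to HEN2 over 307.6 kb with 7 PETs instead. The most tags per kb in Col-0 were held by UBP18, a ubiquitin-specific protease gene, with 2976 per kb, and by EDR2, with 2739 per kb, over anchors of 757 and 737 bp. UBP18 had 1946 tags in *myc2* and 2253 tags in Col-0, and EDR2 had 1519 tags in *myc2* and 2019 tags in Col-0.

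AOS and LOX2 encode consecutive enzymes of jasmonate synthesis, a lipoxygenase that oxygenates linolenic acid and the synthase that makes the allene oxide. AOS held 3266 tags in *myc2* and 3550 tags in Col-0, with 5 loops in *myc2* and 2 loops in Col-0. Its Col-0 loops led to AT5G42660, with 10 PETs in *myc2* and 36 PETs in Col-0, and to AT5G42670, with 7 PETs in *myc2* and 26 PETs in Col-0. LOX2 had the widest anchor of the 88, 3126 bp, with 2458 tags in *myc2* and 2816 tags in Col-0, a ratio of 0.873 (0.827 to 0.921). It stood 19.1 kb from the nearest anchor. Its loop to SETH2 over 22.7 kb had 14 PETs in *myc2* and 22 PETs in Col-0, its loop to AT3G45190 with 10 PETs in Col-0 was not listed in *myc2*, and *myc2* listed 7 PETs to AT3G45260 over 71.1 kb. The ratios of both genes lay above 0.794. Neither had fewer loops in *myc2*, for which the limit of 2 loops in Col-0 left little room. The loops of both genes that were in both lists held fewer PETs in *myc2*. Over all 88 anchors such loops held 0.434 of their Col-0 PETs.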

How the data were processed

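H3K4me3 ChIA-PET of *myc2* and Col-0 shoots was analysed as the authors' loop lists, 1 per genotype. The authors used ChIA-PET Tool V3 with the merged ChIP-seq peaks of both genotypes as anchors, on TAIR10 (submitters' processing notes), and kept clusters at an FDR under 0.05 and a PET count set by sequencing depth. Each deposited list gives a PET count per loop, a tag count per anchor, and the loop's p-value and FDR, also as −log10. Counts are not scaled for depth. The sources used here give neither the aligner nor whether anchor starts count from 0 or 1.

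Loops per anchor were counted in each list. A loop was present in the other list when a loop there overlapped both anchors by at least 1 bp. Neighbours are anchors of either list with a gap of at most 20 kb. Genes and sequences came from RefSeq TAIR10.1, whose chromosomes hold all anchors. An anchor's gene is the protein-coding gene whose span, with 1 kb upstream, covers most of it and at least 50%. Intervals of shares are Wilson intervals, and tag ratios were given intervals through the share of *myc2* tags in the sum. Counting was tested on simulated data. Members, gene lists and the rule for named genes (most tags, most and fewest *myc2* loops, extreme ratios, widest, densest, strongest, longest and most isolated) were chosen with earlier results of these data known. The tools were matplotlib 3.10.9, pandas 2.3.3, numpy 2.4.6 and Python 3.11.15. Alternatives were other tag minimums, loop limits, PET minimums, distances and promoter overlaps, and the rule applied to *myc2*.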

Additional observations from a re-analysis of the deposited data

How the results depend on the processing

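The number of anchors depended on both limits of the choice. It was 404 with a tag minimum of 1500, 10 with 3000, 23 with at most 1 loop, 262 with at most 3 loops, and 222 when tags per kb replaced tags, of which 27 were among the 88. The share with 3 or more loops in *myc2* was 43.1% with a tag minimum of 1500, 80.0% with 3000, 26.1% with at most 1 loop and 74.4% with at most 3 loops. It was 0 with *myc2* loops of at least 10 PETs and 68.3% with the rule applied to *myc2* and followed in Col-0. The share of Col-0 loops present in *myc2* was 87.5% with a tag minimum of 3000 and 37.5% with *myc2* loops of at least 10 PETs. The share with no loop in *myc2* was 0 with a tag minimum of 3000 and 39.8% with *myc2* loops of at least 10 PETs, and within the interval of the reported share it was 4.70% with a tag minimum of 1500 and 4.35% with at most 1 loop. The median number of other anchors was 1 within 10 kb and 11 within 50 kb. A promoter overlapped 100% with a tag minimum of 3000 and 82.6% with at most 1 loop, and covered 50% of the anchor in 35.2%. The median tags per kb were 1473 with a tag minimum of 3000 and 1494 with at most 1 loop. The median tag ratio moved within its interval, 0.775 to 0.828, under every alternative run. An FDR under 0.001 in Col-0 left the number of anchors at 88, and in *myc2* left the shares with 3 or more loops, with no loop and of loops present as they were, the results it was run for. The cause of these shifts was not tested. No paired analysis was possible because the replicates were combined into 1 list per genotype before deposit, and for the same reason no replicate could be left out. Loops under 10 PETs in Col-0 and under 5 PETs in *myc2* are not listed, so a loop missing from a list may hold PETs under its minimum.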
